A study of Mus musculus with 12 samples.

Results

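Genes of mineralized bone matrix and of osteocytes were followed in murine neuroblastoma tumors treated with high intensity focused ultrasound (HIFU), and 9 of the 10 genes studied had a named probe set on the array. The 10 genes were Ibsp, Spp1, Dmp1, Mepe, Phex, Omd, Alpl, Sost, Ifitm5 and Smpd3, and each was represented by its probe set chosen by the highest mean signal over all 12 arrays. The 9 measured genes, each with 1 probe set, stood among 22206 probe sets. Spp1, which encodes osteopontin, had no probe set named for it alone in the annotation used and was not analysed here.

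Neuroblastoma cells were inoculated into mice of the inbred A/J strain to grow the tumors. Groups of 3 tumors carried HIFU labels of 24 h, 48 h and 72 h, and 3 control tumors received no treatment. The design text names mechanical fractionation as the HIFU mode. The times are read here as hours after treatment, an assumption, since the treatment label can also be read as a duration. The sources used here do not give the cell line, where it was inoculated or the age of the mice. No label ties a tumor to its animal, so a p-value reflects only how these samples vary, and part of that variation may be technical. Each tumor had 1 Affymetrix Mouse Clariom S array, and values are log2 signals per probe set, so 1 unit is a 2-fold change.

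Bone mineral is laid down by osteoblasts on a collagen scaffold, and osteocytes are osteoblasts that have become enclosed in that matrix. The SIBLING glycoproteins (small integrin-binding ligand, N-linked glycoproteins) are acidic secreted proteins that bind mineral and, through their RGD sequence, integrins; bone sialoprotein (Ibsp), dentin matrix protein (Dmp1), matrix extracellular phosphoglycoprotein (Mepe) and osteopontin (Spp1) belong to them. Osteocytes control phosphate balance and bone formation through Phex and sclerostin (Sost), among others.

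The SIBLING genes are neighbours. In the RefSeq annotation (assembly GRCm38.p6) the protein-coding genes Dspp, Dmp1, Ibsp, Mepe and Spp1 follow one another in that order on chromosome 5. The 250 bases before each RefSeq start of Ibsp, Dmp1 and Mepe, the SIBLING genes with the most change below, are shown. On the 72 h arrays these genes all lay above all controls. Elsewhere they did not always go together: in HIFU_24h replicate 3 Mepe was 4.62 and Ibsp 2.90. All lie on the plus strand and are written 5′ to 3′, and capitals mark matches to 3 short motifs on either strand.
Ibsp, chr5:104299037-104299286: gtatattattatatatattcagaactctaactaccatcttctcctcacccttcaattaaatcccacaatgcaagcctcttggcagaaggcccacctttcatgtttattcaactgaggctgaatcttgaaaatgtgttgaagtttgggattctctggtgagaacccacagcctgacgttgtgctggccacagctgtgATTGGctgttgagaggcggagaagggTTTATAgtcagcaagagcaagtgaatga
Dmp1, first start, chr5:104197325-104197574: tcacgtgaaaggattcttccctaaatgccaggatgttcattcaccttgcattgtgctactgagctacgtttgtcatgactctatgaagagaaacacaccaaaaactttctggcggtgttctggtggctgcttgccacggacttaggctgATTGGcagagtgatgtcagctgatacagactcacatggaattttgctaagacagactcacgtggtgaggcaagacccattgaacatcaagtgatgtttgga
Dmp1, second start, chr5:104202367-104202616: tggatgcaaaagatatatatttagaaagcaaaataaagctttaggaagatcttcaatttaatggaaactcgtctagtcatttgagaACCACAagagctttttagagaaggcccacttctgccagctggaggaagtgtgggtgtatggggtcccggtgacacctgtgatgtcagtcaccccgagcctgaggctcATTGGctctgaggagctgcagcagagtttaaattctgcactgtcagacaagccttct
Mepe, chr5:104325079-104325328: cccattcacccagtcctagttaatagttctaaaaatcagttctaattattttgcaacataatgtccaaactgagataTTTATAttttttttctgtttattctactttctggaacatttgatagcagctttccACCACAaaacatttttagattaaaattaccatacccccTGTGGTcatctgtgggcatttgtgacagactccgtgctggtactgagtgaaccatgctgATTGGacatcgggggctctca

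The motifs were TGTGGT, the core bound by RUNX factors, TATAAA and CCAAT. All 4 sequences hold CCAAT on the minus strand (written ATTGG), which begins 54 bases before the Ibsp start, 101 and 57 bases before the Dmp1 starts and 21 bases before the Mepe start. Of all 32851 RefSeq promoter windows of the same length, 33.8% hold CCAAT on either strand. The Ibsp window has TATAAA on the minus strand (TTTATA) 28 bases before the start, and Mepe has it 173 bases before, against 12.4% of all windows. TGTGGT or its reverse complement ACCACA was found once at the second Dmp1 start, 164 bases before it, and at 118 and 80 bases before the Mepe start, against 14.0% of all windows. Neither TGANTCA, the AP-1 motif (6.75% of all windows), nor TGACGTCA, the cyclic AMP response element (1.55%), was in these 4 windows. No matches overlapped one another. A match describes the letters only, and the array data do not measure binding. Promoter windows were in the RefSeq table for 9 of the 10 genes, all but Smpd3.

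Signals at or below the 25th percentile of their own array, between 3.45 and 3.76 on the 12 arrays, are called low here. By their mean over all arrays, 4 of the 9 genes were at or below the 25th percentile of all probe sets, 3.55: Ifitm5 (3.47), Alpl (3.37), Omd (3.29) and Sost (3.21). Mepe, at 4.15, was the gene nearest above that limit. The others were Ibsp at 4.39, Phex at 4.76, Dmp1 at 4.90 and Smpd3 at 10.09, the 83.6th percentile. These means served to choose and flag the probe sets and carry no comparison. The array gave the label only in part: Sost, which marks mature osteocytes, was low on 11 of 12 arrays, and Ifitm5, which marks mineralizing osteoblasts, on 7.

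The labelled tissue was checked on 11 measured neuroblastoma markers, and 0 of the 11 were low on any array. Th, which makes the precursor of catecholamines and was named after its values were seen, lay between 10.46 and 13.76. Dbh, the enzyme that turns dopamine into noradrenaline, lay between 11.99 and 16.46. One array stood apart: HIFU_72h replicate 2 had a median correlation of 0.945 with the others, against 0.964 to 0.982 for the other 11. Its summed linear signal of the 11 neuroblastoma markers was 45600, the lowest of the series. The sums were 266000 and 336000 in the other 72 h tumors and 66500 to 348000 in controls. The members' values at 72 h are therefore also given without HIFU_72h replicate 2, and those of other genes where its absence moves the difference by over 1.5 times. In whole tumors, fewer cells of a type and less RNA per cell cannot be told apart.

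Ibsp was the member that changed most. Its product, bone sialoprotein, is an acidic protein of newly mineralizing matrix that nucleates hydroxyapatite. Ibsp signals were 7.14, 9.05 and 6.75 in the 72 h tumors, against 2.79, 2.78 and 2.58 in control tumors. All 3 tumors at 72 h lay far above all controls, and all 3 controls were low. The means were 7.65 ± 1.23 at 72 h and 2.72 ± 0.12 in controls (SD, n = 3 each), a log2 difference of 4.93 ± 0.59 SE or 30.5-fold (limma, adjusted p = 0.0375; 95% interval 3.64 to 6.22). Because the control signals were low, the fold rests on signals near the bottom of the array's range.

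At 72 h, 1 of the 9 members passed as higher and 0 as lower. Over all probe sets 0.00901% passed as higher, which is 2 of 22206, and 0% as lower. The other probe set was Lcn2, which encodes an iron-withholding lipocalin of neutrophils, named here after its values were seen, so Ibsp ranked 2nd of 22206 by p. The Ibsp call was close to the threshold. The difference was positive under all 19 alternatives run, between 4.23 and 5.38, but the adjusted p, between 0.00061 and 0.296, passed under 8 and missed under 11. One of the 8 left out the lowest 25% of probe sets by mean signal, a filter that Ibsp passed through its 72 h arrays. Leaving out control replicate 1 gave an adjusted p of 0.27 and control replicate 2 one of 0.296. It was 0.114, 0.0502 and 0.0871 without HIFU_24h replicates 1, 2 and 3, 0.0526 and 0.0868 without HIFU_48h replicates 1 and 2, and 0.094 without HIFU_72h replicate 1. Quantile normalization gave 0.0634, and both the block for the replicate number and a fit of only the 2 groups gave 0.199. Without HIFU_72h replicate 2, the array that stood apart, Ibsp differed by 4.23 (adjusted p = 0.0273).

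**Figure D1:**
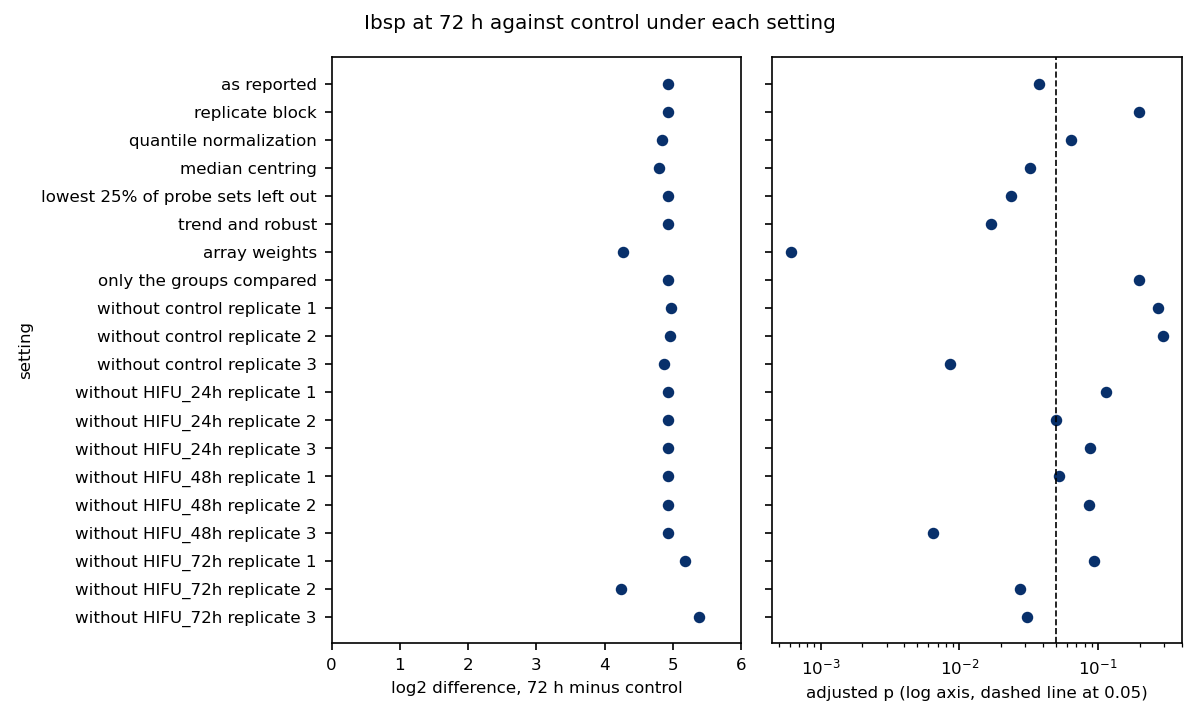
Log2 difference of Ibsp between 72 h and control tumors (left) and its adjusted p on a log axis (right) in the reported fit and under 19 alternatives, 1 row each. The difference stays between 4.23 and 5.38 while the adjusted p lies on both sides of the dashed line at 0.05.

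At the earlier times Ibsp was less high. At 24 h the signals were 2.96, 3.05 and 2.90, against 2.79, 2.78 and 2.58 in controls, with all 3 arrays low and a difference of 0.25 ± 0.59 SE (limma, adjusted p = 0.913). At 48 h the signals were 3.40, 3.86 and 5.47, a difference from control of 1.53 ± 0.59 SE (adjusted p = 0.31). HIFU_48h replicate 3 was the highest of these tumors. The order of the group means was 2.72 in controls, 2.97 at 24 h, 4.24 at 48 h and 7.65 at 72 h. No array of a group overlapped the next group in that order, but 24 h and control differed by less than the standard error. Ibsp was the 1 member of 9 for which all 9 HIFU arrays lay above all 3 controls, as did 1.76% of all probe sets.

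Between times, Ibsp was 4.68 ± 0.59 SE higher at 72 h than at 24 h, 25.6-fold against signals that were all low at 24 h. This was the lowest p of all probe sets in that comparison, but it did not pass (limma, adjusted p = 0.096). It passed there without HIFU_48h replicate 3 (adjusted p = 0.0141), without HIFU_72h replicate 2 (adjusted p = 0.033) and with array weights (adjusted p = 0.0228). It was 3.40 ± 0.59 SE higher at 72 h than at 48 h (adjusted p = 0.735) and 1.27 ± 0.59 SE higher at 48 h than at 24 h (adjusted p = 0.999).

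Dmp1 had the next largest difference at 72 h, which did not pass. Its product, made mainly by osteocytes and odontoblasts, promotes mineralization and restrains the phosphate hormone FGF23. Dmp1 signals were 5.66, 8.41 and 5.46 at 72 h, against 3.68, 3.61 and 4.47 in controls. The groups did not overlap, and HIFU_72h replicate 2 was far above the other tumors. The difference was 2.59 ± 0.72 SE, 6.02-fold (limma, adjusted p = 0.29), and 1.64 without HIFU_72h replicate 2 (adjusted p = 0.786). At 24 h the signals were 4.51, 4.33 and 5.42, which overlapped the controls (0.83 ± 0.72 SE, adjusted p = 0.732). At 48 h they were 3.57, 4.29 and 5.40, also with overlap (0.50 ± 0.72 SE, adjusted p = 0.803).

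Mepe moved least of the measured SIBLING members. It encodes an osteocyte phosphoglycoprotein whose acidic peptide inhibits mineralization. Mepe signals were 4.47, 5.16 and 4.53 at 72 h, against 3.85, 3.87 and 3.44 in controls, with no overlap. The difference was 1.00 ± 0.27 SE (limma, adjusted p = 0.29), and 0.78 without HIFU_72h replicate 2 (adjusted p = 0.85). At 24 h it was 0.49 ± 0.27 SE (adjusted p = 0.591), from 4.08, 3.92 and 4.62, again above all controls. At 48 h it was 0.23 ± 0.27 SE (adjusted p = 0.753), from 4.11, 3.65 and 4.09, which overlapped them. With array weights both Dmp1 (1.99, adjusted p = 0.017) and Mepe (0.73, adjusted p = 0.0267) passed at 72 h. That setting called 1846 probe sets at 72 h, against 2 in the reported fit, so many other probe sets passed with them. Its weights were uneven, from 0.31 for HIFU_72h replicate 2 to 4.19 for control replicate 2.

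Dspp, their neighbour on chromosome 5 and a dentin protein of the same family, was low on 8 of 12 arrays, so a change in it could not be read at this signal. It differed by -0.09 ± 0.21 SE at 72 h (limma, adjusted p = 0.924), with signals of 3.24, 3.42 and 3.38, against 3.59, 3.24 and 3.49 in controls. Dspp was named here after its values were seen.

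**Figure D2:**
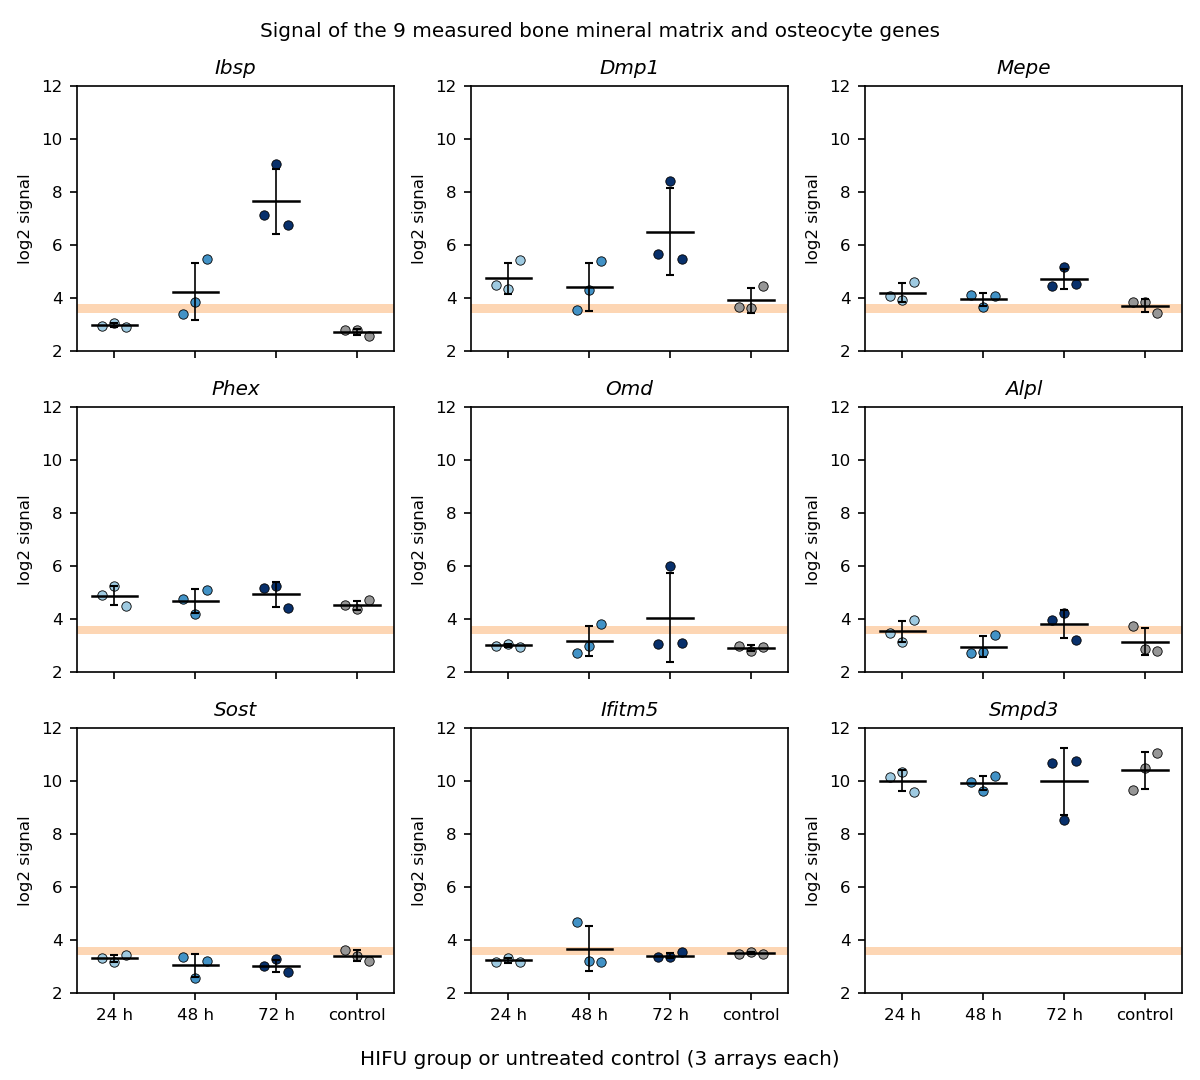
Log2 signal of each measured member on the 12 arrays, by group (points: arrays; horizontal lines: group means; error bars: SD, n = 3; orange band: the 25th percentiles of the 12 arrays, 3.45 to 3.76). Ibsp at 72 h lies between 6.75 and 9.05, above all other groups, while Sost and most arrays of Omd, Alpl and Ifitm5 lie in or below the band.

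Phex encodes an endopeptidase of the osteoblast and osteocyte membrane, and its loss causes X-linked phosphate wasting. Phex signals were 5.17, 5.24 and 4.41 at 72 h, against 4.52, 4.37 and 4.71 in controls, differing by 0.41 ± 0.31 SE (limma, adjusted p = 0.677). The groups overlapped at 72 h, as they did at 24 h (0.36 ± 0.31 SE, adjusted p = 0.737) and at 48 h (0.16 ± 0.31 SE, adjusted p = 0.865). Without HIFU_72h replicate 2 Phex differed by 0.26 at 72 h.

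Omd encodes osteomodulin, a keratan sulfate proteoglycan of mineralized matrix. Omd signals were 3.07, 6.01 and 3.11 at 72 h, against 2.99, 2.80 and 2.95 in controls. HIFU_72h replicate 2 alone was high, and 10 of the 12 Omd signals were low. The difference of 1.15 ± 0.63 SE (limma, adjusted p = 0.527) was 0.18 without that array (adjusted p = 0.999). The next highest Omd signal was 3.82, in HIFU_48h replicate 3, the array with the highest Ibsp of its group.

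Alpl encodes tissue-nonspecific alkaline phosphatase, which removes pyrophosphate, an inhibitor of mineral growth. Alpl signals were 3.98, 4.25 and 3.22 at 72 h, against 3.75, 2.89 and 2.82 in controls. The groups overlapped, and the difference was 0.66 ± 0.36 SE (limma, adjusted p = 0.519), or 0.45 without HIFU_72h replicate 2. It was 0.39 ± 0.36 SE at 24 h (adjusted p = 0.751) and -0.19 ± 0.36 SE at 48 h (adjusted p = 0.859), and 8 of the 12 Alpl signals were low.

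Sost encodes sclerostin, an antagonist of Wnt signaling that osteocytes secrete to limit bone formation. Its signals were between 2.82 and 3.29 at 72 h, against 3.22 to 3.64 in controls, a difference of -0.38 ± 0.25 SE (limma, adjusted p = 0.616), or -0.50 without HIFU_72h replicate 2. With 11 of 12 Sost signals low, a change in this transcript could not be read at this signal.

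Ifitm5 encodes a small membrane protein of osteoblasts, and its mutation causes a form of brittle bone disease. Its signals were between 3.36 and 3.55 at 72 h, against 3.50 to 3.56 in controls, a difference of -0.09 ± 0.34 SE (limma, adjusted p = 0.959), or -0.07 without HIFU_72h replicate 2. At 24 h all 3 arrays, at 3.20, 3.35 and 3.19, lay below the controls, by 0.27 on average and all in the low range (-0.27 ± 0.34 SE, adjusted p = 0.828). HIFU_48h replicate 1, at 4.69, was the highest Ifitm5 signal of the series, and this tumor had the lowest Dmp1 signal, 3.57.

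Smpd3 encodes neutral sphingomyelinase 2, which is needed for normal bone mineralization in mice and is also made in the nervous system. It was high in every tumor, at 10.70, 8.53 and 10.77 at 72 h, against 9.67, 10.50 and 11.06 in controls. The groups overlapped, and the difference was -0.41 ± 0.55 SE (limma, adjusted p = 0.85). HIFU_72h replicate 2, with the highest Ibsp, Dmp1, Mepe and Omd, had the lowest Smpd3; without it the difference was 0.32 (adjusted p = 0.999). At 24 h Smpd3 differed from control by -0.38 ± 0.55 SE (adjusted p = 0.85), and at 48 h by -0.47 ± 0.55 SE (adjusted p = 0.747).

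**Figure D3:**
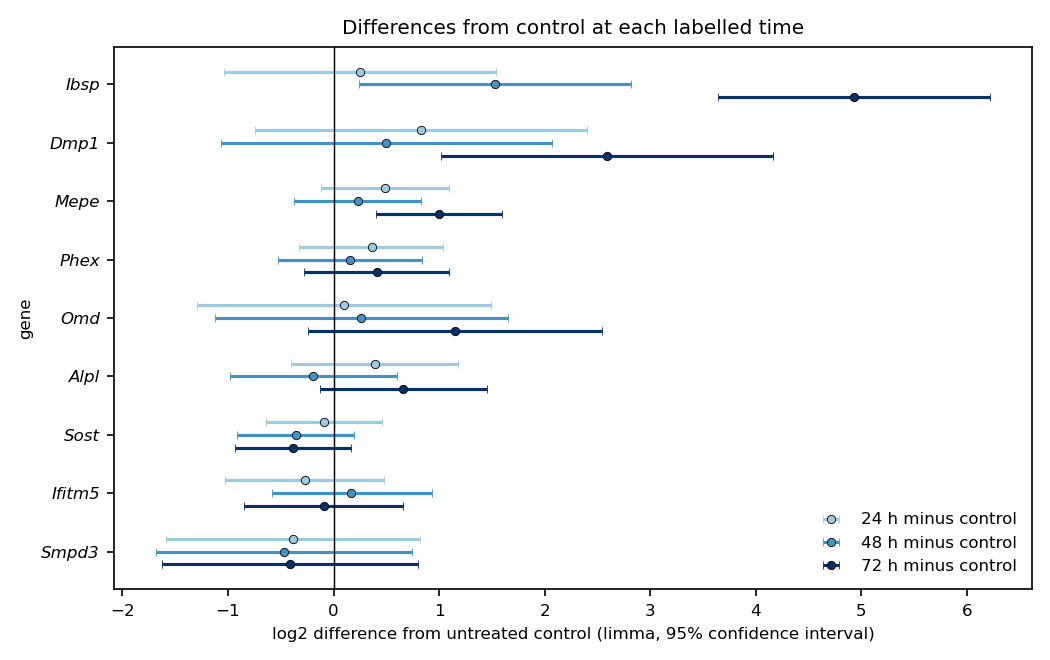
Log2 difference of each measured member from control at 24, 48 and 72 h (points: limma estimates; bars: 95% confidence intervals). At 72 h the intervals of Ibsp (3.64 to 6.22), Dmp1 (1.02 to 4.16) and Mepe (0.40 to 1.60) lie above 0.

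Over the 9 members, the median difference from control was 0.25 at 24 h, 0.17 at 48 h and 0.66 at 72 h, beside medians over all probe sets of 0.00, 0.01 and -0.06. The 72 h median was 0.32 without HIFU_72h replicate 2. These comparisons share the 3 control tumors. At 72 h, 3 of the 9 members had an unadjusted p under 0.05 as higher and 0 as lower, where 5.85% of all probe sets did as higher and 5.39% as lower. For 4 of 9, Ibsp, Dmp1, Mepe and Omd, all 72 h arrays lay above all controls, as for 8.99% of all probe sets, and for 0 of 9 below, against 10.1%. At 48 h this held for Ibsp alone (10.3% of all probe sets above), with 0 members called by limma in either direction, against 0.0045% of all probe sets higher and 0% lower, and 1 member, Ibsp, higher at an unadjusted p under 0.05 (5.3% of all probe sets). At 24 h Ibsp and Mepe lay above the controls and Ifitm5 below them, against 6.84% and 7.68% of all probe sets. None of the members was called at 24 h by limma, against 0.0495% of all probe sets higher and 0.0045% lower, and 0 had an unadjusted p under 0.05 in either direction (3.98% of all probe sets higher and 5.86% lower).

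For Ibsp, Dmp1 and Mepe the 72 h arrays also lay above all 48 h arrays (4.7% of all probe sets did), and for Ibsp, Dmp1 and Ifitm5 above all 24 h arrays (4.53%). Neither comparison, nor that of 48 h with 24 h, called a probe set (limma, 0% as higher). At an unadjusted p under 0.05 there were 4 members higher at 72 h than at 48 h (3.33% of all probe sets), 2 at 72 h than at 24 h (3.22%), and 0 at 48 h than at 24 h (1.85%). For the average of the 3 HIFU times against control, 0 of 9 members passed (0.018% of all probe sets as higher) and 3 were higher at an unadjusted p under 0.05 (6.01%), and Ibsp differed by 2.24 ± 0.48 SE (adjusted p = 0.125). In the F test over the 3 times, 0 members passed (0.00901% of all probe sets), with an adjusted p of 0.0629 for Ibsp.

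Other genes of bone formation moved with the members only in part. Of a list of 32 genes of osteoblasts, matrix and mineral control, 27 were measured, and 0 passed in either direction at 24 h, 48 h or 72 h (limma). At 72 h, 5 were higher and 1 lower at an unadjusted p under 0.05 (5.85% and 5.39% of all probe sets). The median difference was 0.31, beside -0.06 over all probe sets, or 0.16 without HIFU_72h replicate 2. By the p of the F test the first were Mgp, Bmp4, Col1a1 and Dkk1. Mgp, which encodes an inhibitor of calcification, averaged 8.47 ± 1.06 at 72 h and 6.07 ± 0.62 in controls (SD, n = 3 each), a difference of 2.41 ± 0.62 SE (adjusted p = 0.275). Bmp4, a bone morphogenetic protein, differed by 0.86 ± 0.33 SE (adjusted p = 0.37), and by 0.53 without HIFU_72h replicate 2. Col1a1, the main bone collagen and also a product of fibroblasts, differed by 4.91 ± 1.47 SE at 72 h (adjusted p = 0.309) and by 3.23 ± 1.47 SE at 24 h (adjusted p = 0.507), a time at which Ibsp was low. Dkk1, a secreted Wnt antagonist, was among the strongest signals and was lower, at 14.57, 12.40 and 14.67 at 72 h, against 16.72, 16.42 and 14.99 in controls (-2.16 ± 0.77 SE, adjusted p = 0.351). Without HIFU_72h replicate 2 Dkk1 differed by -1.42.

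The osteoblast genes Bglap and Bglap2, which encode osteocalcin, and Sp7, the transcription factor osterix, were named after their values were seen. Bglap signals were 5.10, 8.33 and 4.62 at 72 h, against 4.94, 4.75 and 3.94 in controls (1.47 ± 0.76 SE, limma, adjusted p = 0.502). Bglap2 signals were 5.53, 8.97 and 4.94 at 72 h, against 5.38, 4.99 and 4.04 in controls (1.68 ± 0.82 SE, adjusted p = 0.472). HIFU_72h replicate 2 was high in both, and both overlapped the controls; without it the differences were 0.32 for Bglap and 0.43 for Bglap2. The 2 genes are close copies, so their probe sets may share signal. Sp7 differed by 0.36 ± 0.33 SE (adjusted p = 0.751), and by 0.07 without that array.

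Most genes of osteoclasts, the cells that resorb bone, had higher signals at 72 h in the same tumors. Of 13 measured genes, 0 passed (limma). At an unadjusted p under 0.05, 7 were higher and 0 lower (5.85% and 5.39% of all probe sets). For 9 the 72 h arrays lay above all controls (8.99% of all probe sets) and for 1, Clcn7, below them (10.1%). The summed linear signal of the 13 genes was 3100, 24700 and 2780 at 72 h, against 1110 to 1530 in controls, so HIFU_72h replicate 2 was far the highest. Car2, at 13.83, was the strongest of the 13 in that tumor and weighs most in its sum. The median deviations from the control mean were 0.88, 3.34 and 1.18 in the 72 h tumors. Mmp9, a gelatinase of osteoclasts and neutrophils, differed by 5.20 ± 0.99 SE (adjusted p = 0.209), and Car2, an acid-producing carbonic anhydrase also of red cells, by 6.20 ± 1.36 SE (adjusted p = 0.255). Ctsk, the collagen-degrading cathepsin K, differed by 3.23 ± 0.75 SE (adjusted p = 0.259). Acp5, tartrate-resistant acid phosphatase, differed by -2.22 ± 0.66 SE at 24 h (adjusted p = 0.338) and by 1.84 ± 0.66 SE at 72 h (adjusted p = 0.353), or 1.08 without HIFU_72h replicate 2. The defining markers Calcr and Ocstamp, named after their values were seen, were low on all 12 arrays. Calcr was still among the 9 genes above all controls, as was Oscar, also named after its values were seen and low on 11 arrays. A change in Calcr or Oscar could not be read at this signal. Clcn7, Tnfrsf11a and Dcstamp, also named after their values were seen, differed by -0.62, -0.03 and 0.09 at 72 h. Without HIFU_72h replicate 2, Tnfrsf11a differed by -0.31 and Dcstamp by 0.14.

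The genes whose signals were most like that of Ibsp over the 12 arrays were Ltf, Ctse and Car1. Ltf encodes lactoferrin, of neutrophil granules, Ctse the aspartic protease cathepsin E, and Car1 a carbonic anhydrase of red cells. Their Pearson r with Ibsp, among 14156 named genes, was 0.989, 0.986 and 0.981, with Spearman rho of 0.816, 0.916 and 0.862. These are descriptions over arrays that share their groups, with no test; without HIFU_72h replicates 1 and 2, r was 0.978, 0.965 and 0.952. Ltf signals were 10.13, 13.03 and 8.46 at 72 h, against 3.59, 3.19 and 3.11 in controls, in the same order of tumors as Ibsp. Nearest to Dmp1 were Nxpe2 (r = 0.964), Ifitm6 (0.945) and Trim10 (0.945). Without HIFU_72h replicates 1 and 2, these fell to 0.857, 0.806 and 0.761. Nearest to Mepe were Marchf3 (0.919), Slc25a37 (0.904), a mitochondrial iron carrier of erythroid cells, and Ifnlr1 (0.894). Without HIFU_72h replicate 2 and control replicate 3, these were 0.814, 0.834 and 0.766.

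Among themselves, Ibsp had an r of 0.86 with Dmp1, 0.76 with Mepe and 0.75 with Omd over the 12 arrays, and Dmp1 an r of 0.89 with Omd. The r of Smpd3 with these 4 was between -0.68 and -0.30. Much of this rested on HIFU_72h replicate 2. Without it, over 11 arrays, Ibsp had an r of 0.71 with Dmp1, 0.57 with Mepe and 0.47 with Omd, Dmp1 an r of 0.58 with Omd, and Smpd3 an r of 0.36 with Ibsp, 0.24 with Dmp1, -0.09 with Mepe and 0.05 with Omd. The genes nearest to Smpd3 were Gins1 (0.946), of the DNA replication machinery, Dut (0.941), which clears dUTP, and Thumpd1 (0.937). Without HIFU_72h replicate 2 and control replicate 3, these were 0.900, 0.836 and 0.817. Those nearest to Phex were Dnajc25 (0.923), Chchd6 (0.831) and Pla2g2c (0.807). Without HIFU_48h replicate 2 and HIFU_24h replicate 2, these were 0.919, 0.731 and 0.772. Ibsp is above the 25th percentile of mean signal through its 72 h arrays, so the next profile was partly chosen by where Ibsp is high. The mean standardized signal of the 5 members above that percentile was most like AI467606 (0.947), Rhag (0.916), Ctse (0.914), Alox12 (0.905), Car2 (0.905), Camp (0.904), Car1 (0.903) and Ngp (0.902). Without HIFU_72h replicates 1 and 2, these r lay between 0.763 and 0.871. Rhag is a red cell membrane glycoprotein, Camp and Ngp encode neutrophil granule proteins, and Alox12 a platelet lipoxygenase.

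Markers of several other cell types were also high at 72 h, when Ibsp was highest. For all 11 measured neutrophil genes the 72 h arrays lay above all controls (8.99% of all probe sets). Their summed linear signal was 45900 to 539000 at 72 h, against 182 to 277 in controls. None of the 11 was low at 72 h, and 4 to 6 of them were low on each control array. Ngp was at 13.25 and Mpo, the myeloperoxidase made by marrow precursors of neutrophils, at 10.49 in HIFU_48h replicate 3, against 3.43 and 4.79 for Ngp and 3.61 and 3.51 for Mpo in the other 48 h tumors. That array also had the highest Ibsp at 48 h. Over all 11 neutrophil genes, the sums at 48 h were 940, 19000 and 30500 in replicates 1, 2 and 3. HIFU_24h replicate 1 summed to 7180, with an Ibsp signal of 2.96. Of 5 measured erythroid genes, 4 lay above all controls at 72 h (8.99% of all probe sets). The summed signal of the 5 was 982 to 15400 at 72 h, against 149 to 321 in controls. Early B lineage genes had a median difference of 0.07 at 72 h, or -0.08 without HIFU_72h replicate 2. Of these 8 genes, 2 lay above all controls and 1 below (8.99% and 10.1% of all probe sets). Their summed signal was 764 to 5340 at 72 h, against 254 to 450 in controls. Ebf1, named after its values were seen and also a gene of stromal cells, was the strongest of them on every array, at 9.61, 12.36 and 9.44 at 72 h, against 7.80, 7.51 and 8.59 in controls.

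Of 18 skeletal muscle genes, 0 passed at any time (limma). At an unadjusted p under 0.05, 16 were higher at 24 h, 16 at 48 h and 18 at 72 h (3.98%, 5.3% and 5.85% of all probe sets). At 72 h, 7 of the 18 lay above all controls (8.99% of all probe sets). The summed signal of the 18 was 1260000 to 4210000 at 72 h, against 110000 to 1270000 in controls. They summed to 1540000 to 3910000 at 24 h, when Ibsp was low. Of 9 fibroblast genes, 7 lay above all controls at 72 h (8.99% of all probe sets). These 9 summed to 28600 to 342000 at 72 h, against 12500 to 14900 in controls. They summed to 10300 to 103000 at 24 h and 19500 to 249000 at 48 h. Of 11 genes of lipid-laden and scavenging macrophages, 7 lay above all controls at 72 h (8.99% of all probe sets). These 11 summed to 79800 to 506000 at 72 h, against 43200 to 58400 in controls. Their sums were 46200 to 105000 at 24 h and 43400 to 234000 at 48 h. Both lists thus also exceeded all controls on some arrays at 24 h and 48 h, when Ibsp was less high. The neutrophil and erythroid lists did so as well. Neutrophil genes summed to 277 to 7180 at 24 h and 940 to 30500 at 48 h, against 182 to 277 in controls. At 48 h, 8 of the 11 neutrophil genes lay above all controls (10.3% of all probe sets). Erythroid genes summed to 256 to 1010 at 24 h and 289 to 2000 at 48 h, against 149 to 321 in controls. The part of these cell types in the Ibsp, Dmp1 and Mepe signals was not tested.

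**Figure D4:**
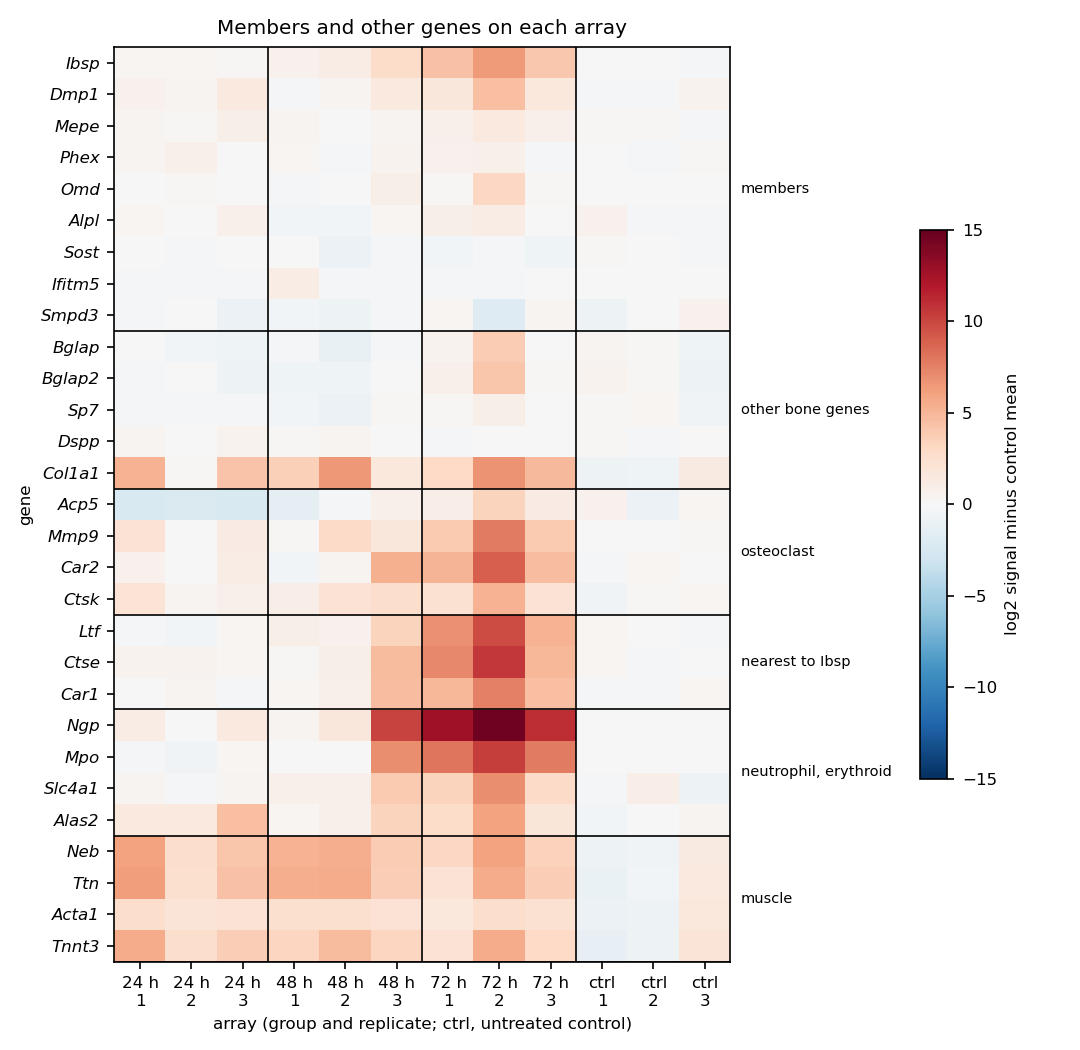
Log2 signal minus the control mean for the 9 members and for other bone, osteoclast, neutrophil, erythroid and muscle genes (rows) on the 12 arrays (columns, by group and replicate), red above and blue below the control mean. Ibsp, Car2, Ltf, Ctse, Car1, Ngp and Mpo are red in HIFU_48h replicate 3 and in all 72 h tumors, while the muscle genes are red at all times.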

How the data were processed

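Signals of 22206 probe sets on 12 Affymetrix Mouse Clariom S arrays, 3 per group, were analysed. The values deposited by the authors ranged from 1.75 to 19.93 and were taken as log2 signals from that range; the log base is not given in the sources used here. The submitters' processing notes name Transcriptome Analysis Console 4.0, with no role; how probes were summarized, corrected or filtered, and on which build, is not given in the sources used here. No further scaling was applied. The array medians lay between 5.43 and 5.68. Changes are mainly relative to other genes on the array. Precision is limited by having 3 arrays per group, and arrays give no read depth.

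Gene names came from GEO's platform annotation, with symbols updated by gene number in RefSeq (GRCm38.p6). Of the probe sets, 19572 had 1 symbol, and 2634 had none or several and were left unnamed. A mean per group was fitted to all 12 arrays with limma 3.58.1 (R 4.3.3; lmFit, eBayes, prior degrees of freedom 3.37). Tests were two-sided, with Benjamini-Hochberg adjustment over all 22206 probe sets and a threshold of 0.05. The fit was tested on simulated data. Figures used Python 3.11.15.

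The members, gene lists and tests were chosen with earlier results of these data known. Named are all measured members, up to 4 genes of each list, those of lowest F-test p and any that passed, the 3 genes nearest to each member above the 25th percentile of mean signal and the 8 nearest to their mean, by Pearson r. Other genes are said to be named after their values were seen. Motifs were searched in 250 bases before each RefSeq start. Alternatives were a block for the replicate number, quantile normalization, median centring, leaving out the lowest 25% of probe sets, array weights, a robust fit with an intensity trend, a fit of the compared groups alone, a 2-fold change at an unadjusted p under 0.05, and leaving out each array in turn. The mean of several probe sets was not run, as 0 members had several.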

Additional observations from a re-analysis of the deposited data

How the results depend on the processing

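Of the members' differences and medians under the alternatives, 1272 stayed on their side of the threshold or within the spread, 7 passed only under an alternative, 11 no longer passed, 2 medians moved by more than the spread, and 0 called differences turned. The 11 were all Ibsp at 72 h against control, whose values stand in the text, and the cause was not tested. The median of the members at 72 h against control was 1.00 with the lowest 25% of probe sets left out, a fit that keeps 5 members, Ibsp through its 72 h arrays, and 0.32 without HIFU_72h replicate 2.

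The labels do not say that equal replicate numbers belong together, and deviations from the group means correlated between -0.61 and 0.62 for same-numbered tumors (median -0.13) and between -0.58 and 0.6 for others (median 0.08); 2 of 12 arrays correlated best with their own number. The replicate block gave 3 probe sets at 24 h (12 as reported), 0 at 48 h (1), 1 at 72 h (2), 1 for the HIFU mean (4) and 1 in the F test (2), and 0 members at 72 h (1).

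Quantile normalization called 1 probe set and 0 members at 72 h. Only the groups compared gave 6 probe sets at 48 h, 2 for 72 h against 24 h and 0 members at 72 h. Median centring gave 14 for the HIFU mean. Leaving out the lowest 25% gave 4 at 72 h, 15 for the HIFU mean and 4 in the F test, with 1 member there. Trend and robust estimation gave 14 for the HIFU mean and 5 in the F test, with 1 member there. Array weights gave 1118 at 24 h, 944 at 48 h, 1846 at 72 h, 7 for 72 h against 24 h, 3787 for the HIFU mean and 1488 in the F test, with 3 members at 72 h, 1 for 72 h against 24 h, 2 for the HIFU mean and 2 in the F test. An unadjusted p with a 2-fold change gave 1197 at 24 h, 1623 at 48 h, 1620 at 72 h, 154 for 48 h against 24 h, 395 for 72 h against 48 h, 535 for 72 h against 24 h and 1500 for the HIFU mean, with 1, 3, 2, 2 and 2 members at 48 h, at 72 h, for 72 h against 48 h, for 72 h against 24 h and for the HIFU mean.

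Leaving out 1 array gave 0 to 253 probe sets at 24 h, 0 to 312 at 48 h, 1 to 194 at 72 h, 0 to 2 for 72 h against 48 h, 0 to 7 for 72 h against 24 h, 1 to 398 for the HIFU mean and 1 to 148 in the F test, the highest of the comparisons with control always without control replicate 3. Members called were 0 to 1 at 72 h, for 72 h against 24 h and in the F test, and 0 elsewhere.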

Other observations

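Proteoglycans related to osteomodulin were also measured. Of 9 small leucine-rich proteoglycans of bone, cartilage, tendon and loose connective tissue, 0 passed (limma), and the median difference at 72 h was 2.69. At an unadjusted p under 0.05, 7 were higher and 0 lower at 72 h (5.85% and 5.39% of all probe sets). Chad, chondroadherin of cartilage and bone, differed from control by 0.33 ± 0.47 SE at 24 h (adjusted p = 0.849), by 0.31 ± 0.47 SE at 48 h (adjusted p = 0.82) and by 2.80 ± 0.47 SE at 72 h (adjusted p = 0.135). Chad was low, at or below the 25th percentile of the array, on all 9 arrays of the other groups, so the differences at 24 h and 48 h could not be read at this signal. Ogn, osteoglycin, differed by 4.56 ± 1.21 SE (adjusted p = 0.281) and Dcn, decorin, by 4.79 ± 1.32 SE (adjusted p = 0.29) at 72 h. Ogn differed by 2.92 without HIFU_72h replicate 2. Fmod, fibromodulin, differed by -1.92 ± 0.87 SE at 48 h (adjusted p = 0.375) and by 1.59 ± 0.87 SE at 72 h (adjusted p = 0.526), or 0.80 without that array.

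Cartilage genes differed in both directions at 72 h, with 8 of 13 positive. Of the 13, 0 passed at 72 h (limma), and the median was 0.47. For 5 of 13 the 72 h arrays lay above all controls and for 0 below them (8.99% and 10.1% of all probe sets). At an unadjusted p under 0.05, 2 were higher and 1 lower (5.85% and 5.39% of all probe sets). Comp, cartilage oligomeric matrix protein, differed by 2.28 ± 0.53 SE (adjusted p = 0.259), or 1.52 without HIFU_72h replicate 2, and Sox9, a transcription factor of chondrocytes and neural crest, by -1.87 ± 0.67 SE (adjusted p = 0.352). Of 7 tendon genes, 0 passed at 72 h and 3 were higher at an unadjusted p under 0.05 (5.85% of all probe sets). Kera, keratocan, differed by 2.41 ± 0.82 SE (adjusted p = 0.339), or 1.18 without HIFU_72h replicate 2, against control signals that were all low. The integrin receptors of osteopontin held Itgb3, also an osteoclast gene, at 2.99 ± 0.77 SE (adjusted p = 0.275). At 72 h, 1 of the 9 receptor genes was higher at an unadjusted p under 0.05 (5.85% of all probe sets).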
